A study of Homo sapiens with 4 samples.

Results

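The miR-424, miR-503, miR-542 and miR-450 cluster is a run of 6 miRNA hairpins on the X chromosome. Its 8 members here were chosen by name, hsa-miR-424-5p, hsa-miR-424-3p, hsa-miR-503-5p, hsa-miR-503-3p, hsa-miR-542-5p, hsa-miR-542-3p, hsa-miR-450a-5p and hsa-miR-450b-5p, from a deposited table of 2656 mature miRNAs, and all 8 were in it. Small RNA was sequenced from 4 libraries of HEK293T cells, a widely used embryonic kidney line that expresses large T antigen of SV40. They were grown in DMEM with fetal bovine serum. All 4 carried a landing pad, a genomic site built to accept a transgene. It held the PGK promoter, from the phosphoglycerate kinase gene, in 2 libraries and the CAG promoter, a synthetic cytomegalovirus enhancer and chicken beta-actin element, in the other 2. The series asked which miRNAs differ by promoter. The lines were monoclonal, so promoter and clone cannot be told apart, and nothing in the labels says whether replicates were separate cultures, so p-values measure only the spread between these samples, which may be technical.

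A miRNA hairpin is cut by Drosha and Dicer into a short duplex with a 5p and a 3p arm, and usually one arm is kept in Argonaute while the other is degraded. Bases 2 to 8 of the kept arm, the seed, pair with target mRNAs. Hairpins close together on one strand are often cut from one primary transcript, so that neighbours are made together. miR-424-5p and miR-503-5p belong to the extended miR-15/16 group, which represses cyclins, cyclin-dependent kinases and CDC25A and so restrains entry into the cell cycle. They are known for their induction when myoblasts and monocytes differentiate. miR-542-3p is known as a repressor of survivin.

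The mature sequences show which members could share targets. In RefSeq (GRCh38.p14) 7 of the 8 members were matched by name, all but miR-542-3p. The rare arms miR-503-3p and miR-542-5p were matched but are not printed. The others are given 5′ to 3′ with the seed in capitals, beside miR-16-5p, the most abundant relative of miR-424-5p in these libraries.
miR-424-5p: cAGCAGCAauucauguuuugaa
miR-16-5p: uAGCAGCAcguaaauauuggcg
miR-503-5p: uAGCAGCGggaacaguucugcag
miR-424-3p: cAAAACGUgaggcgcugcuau
miR-450a-5p: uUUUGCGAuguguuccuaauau
miR-450b-5p: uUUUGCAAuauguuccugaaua
miR-424-5p and miR-16-5p had the same seed. The seeds of miR-424-5p and miR-503-5p matched at 6 of 7 bases and differed by A8G, counted from the 5′ end of miR-424-5p. The seeds of miR-450a-5p and miR-450b-5p likewise matched at 6 of 7 bases and differed by G7A. Over their whole length miR-450a-5p and miR-450b-5p were identical at 16 of 22 bases. No 2 of the 5 cluster sequences printed shared a whole seed.

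In GENCODE release 29 (GRCh38) the hairpins lie on the minus strand of chromosome X between 134540185 and 134546711, a span of 6.53 kb. Transcription from that strand meets MIR424 (134546614 to 134546711) first. MIR503 (134546328 to 134546398) follows after 215 bases. A gap of 4890 bases separates MIR503 from MIR542 (134541341 to 134541437). MIR450A2 (134540508 to 134540607), MIR450A1 (134540341 to 134540431) and MIR450B (134540185 to 134540262) close the run. MIR503HG, the lincRNA gene also named H19X (134543337 to 134546632), holds MIR503 in an intron, and an exon of it overlaps 19 bases of MIR424. MIR542 and the MIR450 hairpins lay outside every longer transcript of that annotation, 1899 bases and more beyond the end of MIR503HG. The cluster is often described as lying in MIR503HG, and in this annotation that held in full for MIR503 and in part for MIR424. The deposited tables hold no coordinates, so positions were looked up by name.

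Libraries held 2845945 (CAG replicate 2) to 13780279 counts (CAG replicate 1), so the shallowest library sets the precision of rare arms. Levels are CPM, counts scaled to a common library total with TMM factors, and 1 read was worth 0.0777 to 0.324 CPM. Adapter ligation favours some miRNAs over others, so an order of levels among members is less certain than a comparison of 1 member between libraries. In such bulk RNA, fewer cells that make a miRNA and less of it in each cell cannot be told apart. All 8 members passed the low-count filter, as did 773 miRNAs in all. Among markers of other cell types, miR-223-3p of myeloid cells had no read in any library and miR-206 of muscle had 1 read, while the list's summed level was 1671 to 1882 CPM in PGK and 1127 to 1270 CPM in CAG libraries, most of it miR-126-3p of endothelium. Of its 6 tested markers 3 fell (miR-1-3p, miR-126-5p and, outside the naming rule and chosen after its value was seen, miR-133a-3p) and miR-143-3p rose. miR-133a-3p was rare, with 20 and 14 reads in PGK and 4 and 0 reads in CAG replicates 1 and 2. The list's median log2 fold change was −0.70. These 4 calls are 66.7% of the tested markers, beside 14.2% of all tested miRNAs. With PGK replicate 1, then PGK replicate 2, then CAG replicate 1 left out, the edgeR adjusted p was 0.199, 0.187 and 0.176 for miR-126-5p and 0.227, 0.202 and 0.308 for miR-143-3p. The part of such cells in the results was not tested, and no miRNA of these lists defines HEK293T itself.

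The members did not all lie on one side of 0. The 4 arms of MIR424 and MIR503 had fitted log2 fold changes below 0 in CAG against PGK cells, and the 4 members from MIR542 and the MIR450 hairpins had values above 0. For the rare arms the sign rested on 1 library: miR-503-3p was at 0.13 without PGK replicate 1, and miR-542-5p at −0.017 without CAG replicate 1. miR-424-5p and miR-503-5p fell. None of the other 6 members passed the test (edgeR quasi-likelihood, adjusted p under 0.05). The lower calls were 2 of 8 members, 25.0%, where 6.08% of all 773 tested miRNAs were called lower, 8.15% higher and 14.2% in either direction. Of the members, 0 were called higher by edgeR, DESeq2 or limma-voom, and at an unadjusted p under 0.05 edgeR and DESeq2 each had 1 higher and limma-voom had 2, with 3 lower in each. The median log2 fold change of the 8 members was −0.03, beside −0.0042 over all tested miRNAs.

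**Figure D1:**
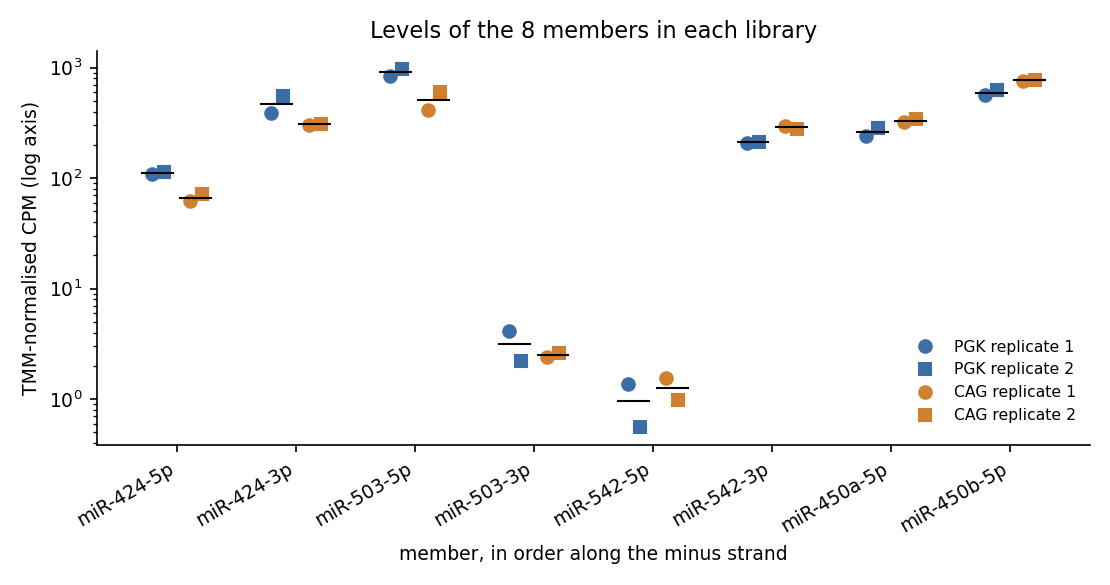
Level of each member in each library, in TMM-normalised CPM on a log axis, in order along the minus strand. Circles and squares are replicates 1 and 2, blue is PGK and orange is CAG, and the black line is the group mean of 2 libraries. The CAG libraries lie below the PGK libraries for miR-424-5p, miR-424-3p and miR-503-5p and above them for miR-542-3p, miR-450a-5p and miR-450b-5p. The 2 rare arms, miR-503-3p and miR-542-5p, overlap between the groups.

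miR-503-5p, the cyclin-repressing arm of MIR503, was at 839 and 977 CPM in PGK replicates 1 and 2 and at 411 and 599 CPM in CAG replicates 1 and 2. Both CAG libraries were below both PGK libraries, and the CAG pair lay further apart. The mean went from 908 ± 98.0 to 505 ± 133 CPM (SD, n = 2), and the fitted level fell by 0.85 on the log2 scale (SE 0.21; edgeR adjusted p = 0.0259). miR-424-5p, which carries the miR-16 seed, was at 108 and 114 CPM in PGK and at 61.3 and 71.6 CPM in CAG replicates 1 and 2. Its groups did not overlap either, and it fell by 0.75 (SE 0.19; edgeR adjusted p = 0.0286), from 111 ± 4.47 to 66.5 ± 7.27 CPM (SD, n = 2).

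Each call was lost in some fits with 1 library left out. Such a fit leaves 1 library in a group, so it cannot tell reliance on the omitted library from lost power. Without PGK replicate 1 and without PGK replicate 2 the edgeR adjusted p was 0.165 and 0.297 for miR-503-5p and 0.159 and 0.237 for miR-424-5p, and without CAG replicate 1 it was 0.137 for miR-424-5p. The fitted change of miR-503-5p was −0.59 without CAG replicate 1 and −1.14 without CAG replicate 2.

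miR-424-3p, the other arm of MIR424, was at 385 and 551 CPM in PGK and at 305 and 307 CPM in CAG replicates 1 and 2. The PGK replicates were far apart and the CAG replicates nearly equal, and the groups did not overlap. Its log2 fold change of −0.62 (SE 0.21) missed the threshold (edgeR adjusted p = 0.0793), and without CAG replicate 2 it passed (edgeR adjusted p = 0.0346). miR-503-3p was rare, with 33 and 16 reads in PGK and 31 and 8 reads in CAG replicates 1 and 2. At 4.13 and 2.23 CPM against 2.41 and 2.59 CPM its groups overlapped, and a log2 fold change of −0.39 (SE 0.44; edgeR adjusted p = 0.61) left even its direction unsettled at this depth.

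Beyond the gap the 4 listed members had values above 0, while miR-450a-1-3p, a minor arm outside the list, was at −0.24. miR-542-3p was at 209.7 and 209.9 CPM in PGK and at 293 and 280.4 CPM in CAG replicates 1 and 2, with replicates close together and no overlap. Its log2 fold change was 0.45 (SE 0.18; edgeR adjusted p = 0.124). miR-450a-5p, which MIR450A1 and MIR450A2 both yield and which the table cannot split, was at 241 and 282 CPM in PGK and at 321 and 339 CPM in CAG replicates 1 and 2. Its log2 fold change was 0.33 (SE 0.18; edgeR adjusted p = 0.269). miR-450b-5p was at 563 and 620.1 CPM in PGK and at 760.1 and 773 CPM in CAG replicates 1 and 2. These groups too did not overlap, with a log2 fold change of 0.37 (SE 0.17; edgeR adjusted p = 0.192). miR-542-5p, with 11 and 4 reads in PGK and 20 and 3 reads in CAG replicates 1 and 2, overlapped between groups (log2 fold change 0.52, SE 0.62; edgeR adjusted p = 0.623).

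Groups did not overlap for 6 of the 8 members, 3 lower and 3 higher in CAG cells. They did not overlap for 57.2% of all tested miRNAs either, so the lack of overlap alone does not set the cluster apart.

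**Figure D2:**
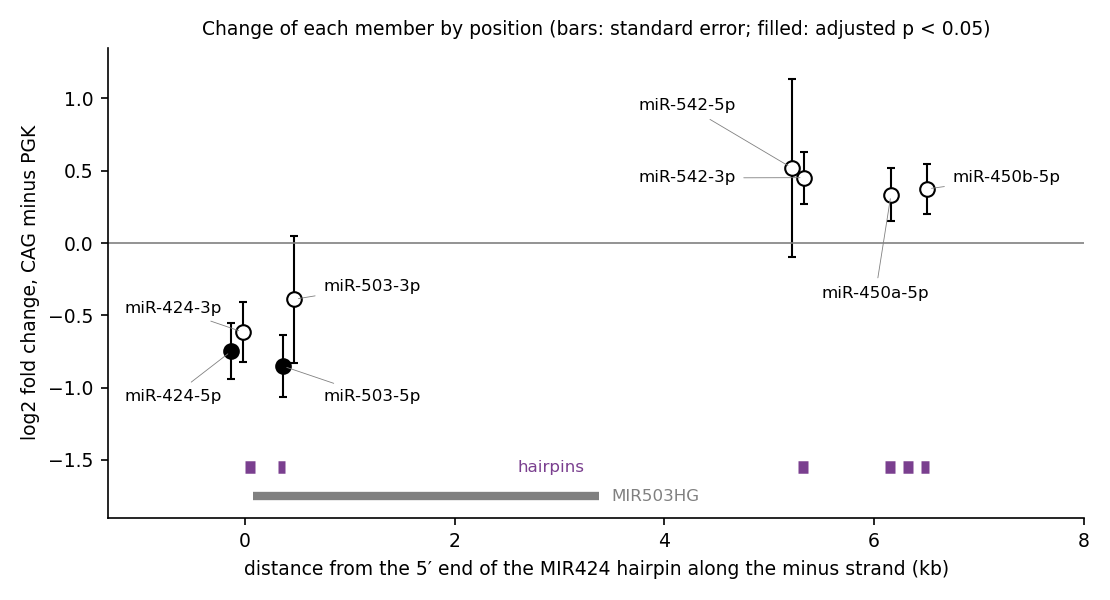
Fitted log2 fold change (CAG minus PGK) of each member against the distance of its hairpin from the 5′ end of MIR424, in kb along the minus strand. Bars are standard errors of the edgeR fit on 2 libraries per group, filled points passed the adjusted threshold of 0.05, and points are moved sideways slightly so that they do not cover each other. miR-450a-5p is placed midway between its 2 hairpins, and the bars at the foot mark the hairpins and MIR503HG. Members from the first 2 hairpins lie below 0 and members beyond the gap lie above 0.

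The order of the members by level differed between the groups. In both PGK libraries miR-503-5p was the most abundant member, ahead of miR-450b-5p and then miR-424-3p. In both CAG libraries miR-450b-5p came first, ahead of miR-503-5p and then miR-450a-5p. miR-424-3p, miR-450a-5p and miR-542-3p were close to each other in CAG cells, at group means of 306, 330 and 287 CPM. In every library miR-424-5p was the lowest of the 6 abundant members.

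Ratios between members within a library do not depend on scaling. On the near side of the gap, miR-503-5p over miR-424-5p was 7.78 and 8.57 in PGK and 6.69 and 8.36 in CAG replicates 1 and 2. On the far side, miR-450b-5p over miR-450a-5p was 2.33 and 2.20 in PGK and 2.37 and 2.28 in CAG replicates 1 and 2. miR-450b-5p over miR-542-3p was 2.68 and 2.96 in PGK and 2.59 and 2.76 in CAG replicates 1 and 2. In each of these pairs the groups overlapped.

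Across the gap they did not. miR-503-5p over miR-542-3p was 3.999 and 4.66 in PGK and 1.40 and 2.14 in CAG replicates 1 and 2. miR-503-5p over miR-450b-5p was 1.49 and 1.58 in PGK and 0.540 and 0.775 in CAG replicates 1 and 2. miR-424-3p over miR-450b-5p was 0.684 and 0.889 in PGK and 0.401 and 0.397 in CAG replicates 1 and 2. Each of these ratios was lower in both CAG libraries than in either PGK library. How often ratios of other miRNA pairs separate the groups was not computed. Groups did not overlap for 57.2% of single tested miRNAs, so separation alone does not set the gap apart. The 8 pairs compared were picked after the values were seen, and with 2 libraries against 2 an exact two-sided permutation test cannot go below p = 0.333, so the ratios are given as a description.

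Summed over arms, MIR424 and MIR503 reached 1336 and 1645 CPM in PGK and 779 and 979.8 CPM in CAG replicates 1 and 2. The 4 members of MIR542 and MIR450 reached 1015 and 1112 CPM in PGK and 1376 and 1393 CPM in CAG replicates 1 and 2. The ratio of the first sum to the second was 1.32 and 1.48 in PGK and 0.566 and 0.703 in CAG replicates 1 and 2. Its mean was 1.40 ± 0.115 in PGK and 0.635 ± 0.0969 in CAG cells (SD, n = 2), 2.20 times higher in PGK cells. All 8 members together averaged 2554 ± 287 CPM with PGK and 2264 ± 154 CPM with CAG (SD, n = 2), and their groups overlapped. Both parts were defined after the values were seen. MIR424 and MIR503 gave 56.8% and 59.7% of the members' reads in PGK and 36.2% and 41.3% in CAG replicates 1 and 2.

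Each neighbour was also tested against miR-424-5p, in a limma fit of its log2 CPM minus that of miR-424-5p over 772 miRNAs. miR-542-3p, miR-450a-5p and miR-450b-5p departed from miR-424-5p by 1.19 (SE 0.24), 1.08 (SE 0.24) and 1.12 (SE 0.24) on the log2 scale. Their limma adjusted p-values were 0.000806, 0.00151 and 0.00115. miR-424-3p differed from it by 0.15 (SE 0.25; limma adjusted p = 0.637) and miR-503-5p by −0.13 (SE 0.24; limma adjusted p = 0.678). With miR-503-5p as the reference, an alternative chosen after seeing the data, miR-542-3p, miR-450a-5p and miR-450b-5p again departed, by 1.32, 1.21 and 1.24 (limma adjusted p = 0.011, 0.0189 and 0.0175), where 32.4% of all miRNAs departed from it, 31.3% upward and 1.04% downward.

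These calls, 3 of 7 members or 42.9%, are near the background, since 45.2% of all miRNAs departed from miR-424-5p, 43.8% of all miRNAs upward and 1.42% downward. They are therefore not a result about the far hairpins in particular. Every miRNA of this fit shares the noise of miR-424-5p in the 4 libraries, so its p-values are too small. Without PGK replicate 1 the departures of miR-450a-5p and miR-450b-5p were no longer called (limma adjusted p = 0.0729 and 0.0705).

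**Figure D3:**
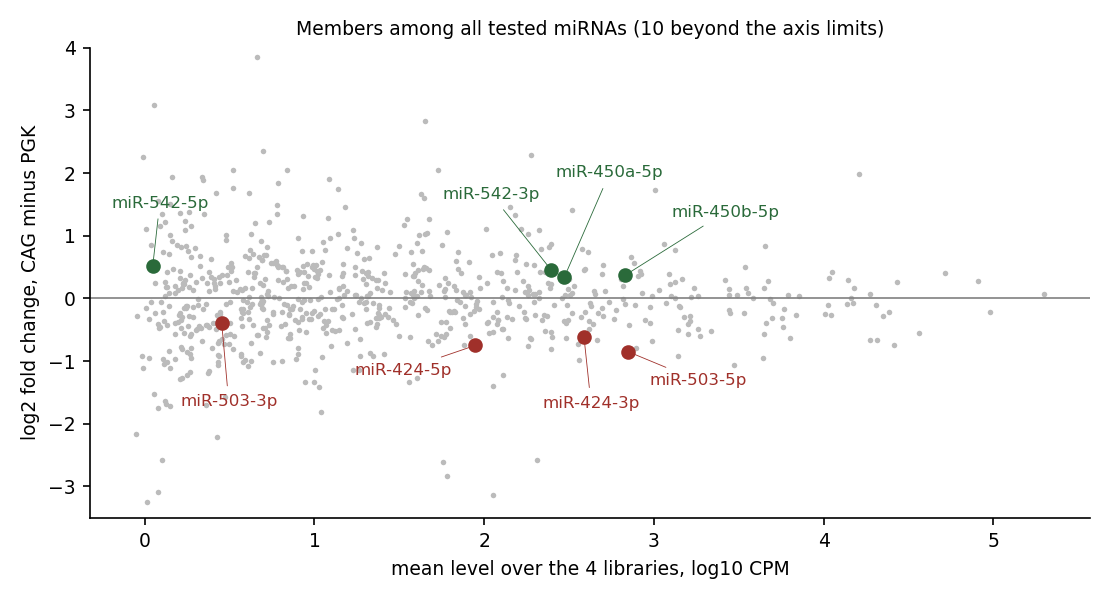
Fitted log2 fold change (CAG minus PGK) against the mean level over 4 libraries (log10 CPM) for the 773 tested miRNAs, grey, with the members of MIR424 and MIR503 in red and those of MIR542 and MIR450 in green; 10 miRNAs lie beyond the vertical limits. The members sit within the cloud of the other miRNAs, the red points below 0 and the green points above 0.

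The arm ratios of the hairpins spanned a wide range, and which arm dominated was the same in all libraries. MIR424 gave more 3p than 5p reads, with 3.57 and 4.84 reads of miR-424-3p per read of miR-424-5p in PGK and 4.97 and 4.28 in CAG replicates 1 and 2. The arm with the miR-16 seed was thus the minor one, at 21.9% and 17.1% of MIR424 reads in PGK and 16.8% and 18.9% in CAG replicates 1 and 2. MIR503 gave almost only 5p reads, with 203 and 438 reads of miR-503-5p per read of miR-503-3p in PGK and 171 and 231 in CAG replicates 1 and 2. MIR542 leaned the other way, with 152 and 376 reads of miR-542-3p per read of miR-542-5p in PGK and 189 and 288 in CAG replicates 1 and 2. Among 173 hairpins with both arms at a mean of 10 counts or more, 45.7% had more 3p than 5p reads.

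The MIR450 hairpins favoured the 5p arm. miR-450a-5p had 13.97 and 13.7 reads per read of its summed 3p arms, miR-450a-1-3p and miR-450a-2-3p, in PGK and 17.7 and 14.9 in CAG replicates 1 and 2. Those 3p arms also tell the 2 hairpins apart, which the shared 5p arm cannot. miR-450a-1-3p was at 5.38 and 6.55 CPM in PGK and 4.58 and 6.16 CPM in CAG replicates 1 and 2, and miR-450a-2-3p at 11.9 and 14.1 CPM in PGK and 13.5 and 16.5 CPM in CAG replicates 1 and 2. Both overlapped between groups, with log2 fold changes of −0.24 (SE 0.33; edgeR adjusted p = 0.679) and 0.17 (SE 0.27; edgeR adjusted p = 0.733). miR-450b-3p had 1 read in PGK replicate 1 and 0 in the other libraries, which allows up to 0.233 to 0.972 CPM there (3 counts), against 4498 reads of miR-450b-5p in PGK replicate 1 and 9788 in CAG replicate 1.

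No arm ratio of the cluster was called different between the groups. The log2 ratio of 5p to 3p counts changed by −0.15 for miR-424 (SE 0.36; limma adjusted p = 0.963) and by −0.61 for miR-503 (SE 0.45; limma adjusted p = 0.963) in CAG against PGK cells. Of the 173 hairpins in that fit 0 were called, a background of 0%, and 7 had an unadjusted p under 0.05, neither cluster hairpin among them. A standard error of this size leaves room for a change in either direction. The miR-503 ratio rests on few 3p reads, 16 in PGK replicate 2 and 8 in CAG replicate 2. miR-542 averaged 9.50 counts in its 5p arm and was below the minimum. At a minimum of 5 counts, chosen after seeing the data, its log2 ratio changed by 0.05 (SE 0.55; limma adjusted p = 0.978). Pooled over libraries, miR-542-5p made up 0.469% of MIR542 reads in PGK (95% exact binomial interval 0.263 to 0.773) and 0.493% in CAG cells (0.313 to 0.739). Such intervals cover counting error only, since PCR reads without molecular identifiers are not independent molecules.

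**Figure D4:**
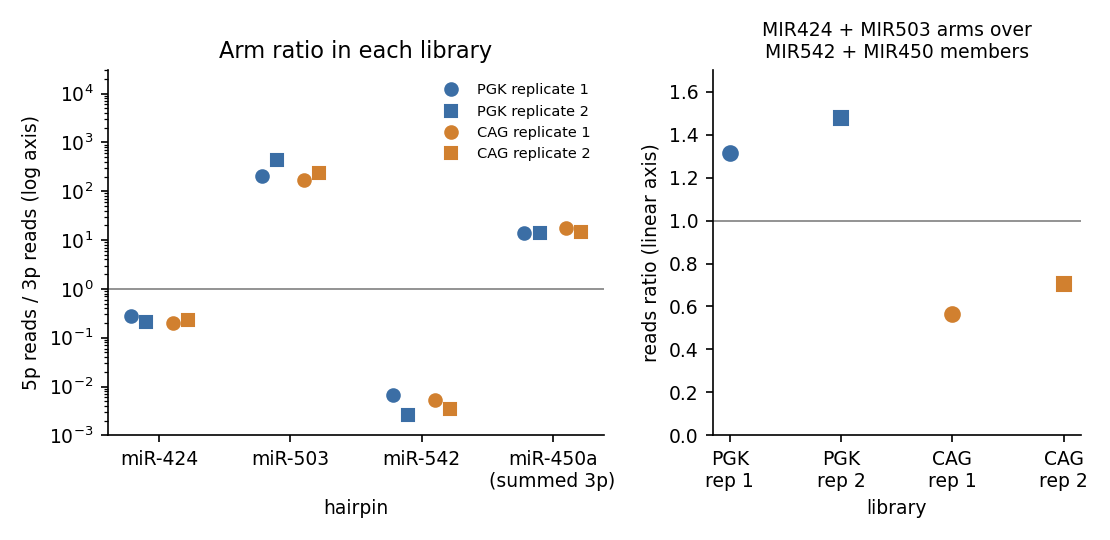
Left, 5p reads per 3p read (log axis) of each hairpin in each library, with miR-450a-5p set against both its 3p arms summed; blue is PGK, orange is CAG, circles and squares are replicates 1 and 2. Right, reads of the MIR424 and MIR503 arms over reads of the MIR542 and MIR450 members in each library (linear axis). Arm ratios stay on one side of 1 for each hairpin, while the ratio between the 2 parts of the cluster is 1.32 and 1.48 in PGK and 0.566 and 0.703 in CAG libraries.

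The seed relatives of miR-424-5p were followed because they share its targets in principle. They are miR-15a, miR-15b, miR-16, miR-195, miR-497 and miR-6838, all 5p arms, and miR-6838-5p was too rare to test. Of the 5 tested, 0 were called by edgeR, beside 14.2% of all tested miRNAs. With so few miRNAs a count of 0 cannot be told from that share. Their median log2 fold change was 0.32, beside −0.0042 over all tested miRNAs. miR-16-5p, the most abundant, was at 1372 and 1094 CPM in PGK and 1261 and 1284 CPM in CAG replicates 1 and 2 (log2 fold change 0.05, SE 0.18; edgeR adjusted p = 0.891). miR-15b-5p stood at 661 and 653 CPM in PGK and 634 and 678 CPM in CAG replicates 1 and 2. Its log2 fold change was −0.0042 (edgeR adjusted p = 0.988). miR-15a-5p and miR-195-5p had log2 fold changes of 0.37 and 0.32 (edgeR adjusted p = 0.308 and 0.516).

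The deposited seed family of miR-424-5p, AGCAGCA, did not pass the test. It was at 2233 and 1944 CPM in PGK and 2034 and 2062 CPM in CAG replicates 1 and 2, with overlapping groups and a log2 fold change of −0.03 (SE 0.16; edgeR adjusted p = 0.925). miR-424-5p gave 4.88% and 5.95% of its reads in PGK and 3.01% and 3.40% in CAG replicates 1 and 2, against 57.0% to 62.1% from miR-16-5p. miR-503-5p is alone in its family, AGCAGCG, which fell by 0.89 (SE 0.21; edgeR adjusted p = 0.0361). This is the same reads as the miRNA test and adds no independent evidence. The UGGGAUC family of miR-450b-3p drew 0.345% of its reads from the cluster in PGK replicate 1 and 0 in the other libraries. That family and AGCAGCA thus mostly count reads of other loci. Of the 10 seed families of cluster arms with a matched sequence, which leave out that of miR-542-3p, 1 was called, where 10.4% of 642 tested families were, 5.76% higher and 4.67% lower. With PGK replicate 1, then PGK replicate 2, then CAG replicate 1 left out, the AGCAGCG call was lost (edgeR adjusted p = 0.197, 0.229 and 0.167), and the count was 0.

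**Figure D5:**
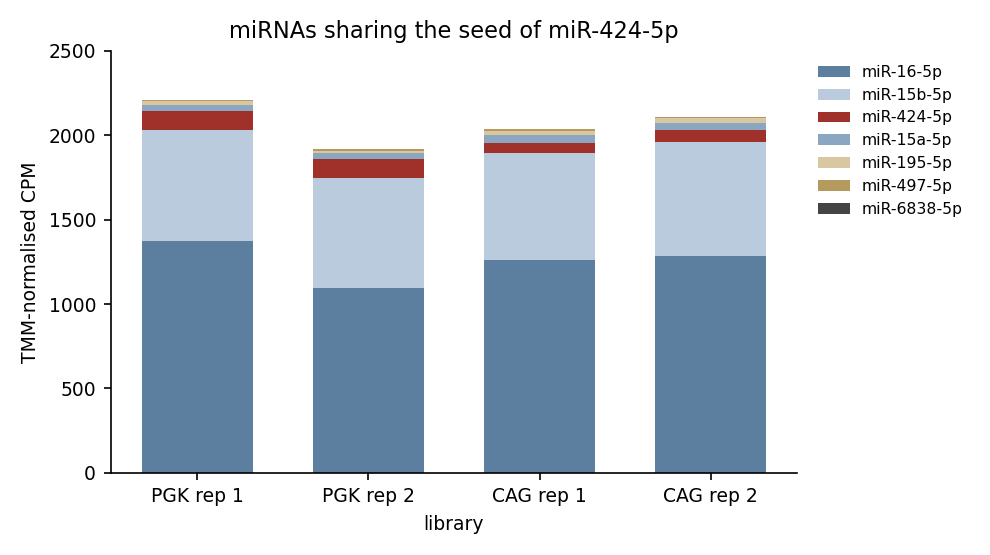
Stacked levels (TMM-normalised CPM, linear axis from 0) of the miRNAs that share the seed of miR-424-5p, in each library. miR-424-5p, in red, is a thin layer, 108 and 114 CPM in PGK and 61.3 and 71.6 CPM in CAG replicates 1 and 2, beside miR-16-5p and miR-15b-5p.

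Elsewhere on the X chromosome the miR-106a to miR-363 cluster (134169378 to 134170278), relatives of the proliferative miR-17 group, lies 370 kb away from MIR450B. Of its 10 listed arms 3 were abundant enough to test, with a median log2 fold change of −0.10. edgeR called 0 of them, beside 14.2% of all tested miRNAs, and 3 tests are too few to tell these apart. miR-106a-5p was at 335 and 372 CPM in PGK and 328 and 274 CPM in CAG replicates 1 and 2 (log2 fold change −0.23, SE 0.19; edgeR adjusted p = 0.464). miR-20b-5p and miR-18b-5p had log2 fold changes of 0.01 and −0.10, and near-identical copies in the miR-17 and miR-106b clusters make the assignment of such reads uncertain.

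Of 11 other miRNAs listed as restraints on the cell cycle 9 were tested, 1 rose and 1 fell, 22.2% beside 14.2% of all tested miRNAs. miR-129-5p, a repressor of CDK6, rose 1.73-fold (edgeR adjusted p = 0.0199), though not without PGK replicate 1 or PGK replicate 2 (0.159 and 0.237). miR-34a-5p, a target of p53 that was named after its value was seen, fell by 2.57 on the log2 scale (edgeR adjusted p = 6.56e-06). None of miR-26a-5p, miR-26b-5p and let-7a-5p passed the test, at 0.06, −0.23 and 0.05 on the log2 scale. The list's median was 0.05, beside −0.0042 over all tested miRNAs.

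Outside the cluster, the miRNAs whose centred log2 CPM lay closest to that of the summed members over the 4 libraries were miR-454-5p, miR-30d-3p, miR-107, miR-374b-5p and miR-548ae-5p, at root mean square differences of 0.0199, 0.0208, 0.0397, 0.0441 and 0.0466. Of 357 candidates with a mean of at least 20 CPM 120 lay within 0.2, so a pattern this flat is shared by many miRNAs.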

How the data were processed

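The 2 PGK and 2 CAG small RNA libraries were grouped by sample title. Per the labels' protocols, RNA came from Trizol extraction and library preparation used the NEBNext Small RNA kit. The authors deposited whole-number counts per mature miRNA and per seed family, 1 column per library. The aligner, build, annotation and treatment of ambiguous reads: not given in the sources used here. Every column belonged to a library of the labels. Replicates differed far beyond counting noise (chi-square of 41.7 per degree of freedom over all miRNAs with reads for PGK and 79.4 for CAG), so none was a copy.

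Tests used R 4.3.3. edgeR 4.0.16 (quasi-likelihood, robust, TMM, minimum count 10 and total 15, group as the only term) was fitted on the whole table, with Benjamini-Hochberg adjustment over all miRNAs or families. limma 3.58.1 was fitted to log2 ratios of 5p to 3p counts (0.5 added to each; both arms at a mean of at least 10) and to log2 CPM (prior count 2) minus that of miR-424-5p. Standard errors of edgeR are the fold change over the root of F. The fits were also run on simulated counts, with changes larger than those fitted for any member or cluster arm ratio. That run does not cover changes as small as theirs. Named were the members, the hairpins' other arms, up to 4 of the most abundant tested miRNAs of each list, and the 5 closest in pattern. Members and lists were chosen with earlier results of these data known. Alternatives were other scalings, filters, DESeq2 1.42.0, limma-voom, the older edgeR method, thinning, a replicate block, each library left out, and a threshold of 0.01.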

Additional observations from a re-analysis of the deposited data

How the results depend on the processing

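With 2 libraries per group, limits come from few replicates and from CAG replicate 2, the shallowest library. Each of the 15 alternatives run per miRNA kept miR-424-5p and miR-503-5p below 0 (log2 fold changes of −0.85 to −0.61 and −1.14 to −0.59) and miR-542-3p, miR-450a-5p and miR-450b-5p above 0 (0.43 to 0.49, 0.21 to 0.44 and 0.29 to 0.44). These fits share their libraries, so that adds little. The count of members called lower, 2, became 1 with library size scaling, with the filter of 10 CPM, after thinning and with the replicate block, and 0 at a threshold of 0.01; it ran from 0 to 3 when 1 library was left out. miR-424-5p lost its call with the block (edgeR adjusted p = 0.0549) and after thinning (0.063), miR-503-5p with library size scaling (0.0503) and the filter of 10 CPM (0.0574). The cause was not tested. With 1 library left out, a lone library was assumed to vary like the other group.

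The count of called seed families, 1, became 0 with the filter of 10 CPM, at 0.01, after thinning and with the replicate block, 2 with DESeq2, and 0 to 1 with a library left out. The 3 members called against miR-424-5p became 0 when the summed members were the reference. That sum holds the 3 members themselves, so the drop cannot show whether they depart from miR-424-5p. Over the main fit and its 8 alternatives with miR-424-5p as reference, miR-542-3p departed by 1.046 to 1.334. miR-450a-5p departed by 1.006 to 1.151 and miR-450b-5p by 1.015 to 1.215 on the log2 scale. The listed cell-cycle miRNAs called higher, 1, became 0 at 0.01 and 0 to 1 with a library left out. The markers of other cell types called higher, 1, became 0 at 0.01, after thinning and with the replicate block, and 0 to 1 with a library left out, and those called lower, 3, became 1 at 0.01 and after thinning, and 1 to 3 with a library left out. The summed MIR542 and MIR450 members, log2 CAG over PGK, were 0.38 with all libraries and 0.30 to 0.44 with a library left out; the change of the ratio between both parts of the cluster was −1.14, and −1.301 to −0.99 with a library left out. The alternatives for these sums were chosen after seeing the data. Over all hairpins, arm ratios called went from 0 to 2 with a pseudocount of 2 or a minimum of 100 counts, and to 8 without PGK replicate 1 and 3 without PGK replicate 2, with no cluster hairpin among them. Over all miRNAs, 349 departures from miR-424-5p became 64 against the summed members, 157 against miR-424-3p (chosen after seeing the data), 212 at 0.01, and 139 to 410 with a library left out.

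Signs changed for the following values, none of them called. miR-20b-5p was −0.01 with RLE scaling, −0.001 with the filter of 10 CPM and −0.015 with DESeq2. miR-15b-5p was 0.021 with library size scaling and 0.004 without a filter, and the AGCAGCA family was 0.031 with library size scaling and 0.025 with the filter of 10 CPM. miR-450a-2-3p was −0.008 after thinning. With a library left out, log2 fold changes ran as follows. The AGCAGCA family ran from −0.156 to 0.042, let-7a-5p from −0.147 to 0.245, miR-15b-5p from −0.048 to 0.051, miR-16-5p from −0.117 to 0.198, miR-18b-5p from −0.277 to 0.174, miR-20b-5p from −0.111 to 0.105, miR-450a-1-3p from −0.379 to 0.058, miR-503-3p from −0.753 to 0.129 and miR-542-5p from −0.017 to 1.308. The change of the miR-424 arm ratio ran from −0.366 to 0.07, and the differences of miR-424-3p and miR-503-5p from miR-424-5p from −0.071 to 0.365 and from −0.289 to 0.032.

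The sample titles give replicate numbers and do not say whether these pair the libraries. Deviations of same-numbered libraries correlated at −0.02 over 773 miRNAs, which shows no shared deviation but cannot settle the design. The block also ended the calls of miR-126-5p, miR-143-3p and the AGCAGCG family (edgeR adjusted p = 0.0549, 0.0541 and 0.107), and no other call among the miRNAs and arm ratios named.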
